A study of Mus musculus with 10 samples.

Results

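The late cornified envelope genes (Lce) and the small proline-rich genes (Sprr) encode short proteins that are built into the outer shell of dying skin cells. All genes of the count table whose symbol begins with Lce or Sprr followed by a digit were taken, which gave 38 of 46078 genes. They were 21 Lce genes (14 Lce1, 6 Lce3 and 1 Lce6) and 17 Sprr genes (2 Sprr1, 13 Sprr2, 1 Sprr3 and 1 Sprr4). On the GRCm38 annotation all 38 lay on chromosome 3 between bases 92215799 and 93019060, with the Sprr genes at chr3:92215799-92500493 and the Lce genes at chr3:92620081-93019060. Of the 38 genes, 22 had enough reads for the test, 13 had a few reads and 3 had none.

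When a keratinocyte leaves the basal layer of the epidermis it ends as a flat, dead corneocyte, and its plasma membrane is replaced by the cornified envelope, a layer of proteins joined by transglutaminases. Loricrin and involucrin form much of that layer, Sprr proteins act as cross-bridges between them, and Lce proteins are added late, when the cell is nearly cornified. Their genes sit together with those of loricrin, involucrin and the filaggrin family in the epidermal differentiation complex. Lce1 genes are known from normal skin, Lce3 genes from injured or inflamed skin, Sprr2 and Sprr1b from irritated or wounded epithelium, and Sprr3 mainly from the lining of the mouth and oesophagus.

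Whole back skin of C57BL/6 mice kept under specific pathogen free conditions was sequenced at 21 days of age. The SA group (5 libraries) had been given Staphylococcus aureus SF8300 and the SE group (5 libraries) Staphylococcus epidermidis Tü3298, each as 100 µl of suspension spread on the skin every other day between days 3 and 19. The question is what early life with the pathogen does to skin, set against early life with the commensal, and no uncolonised group was analysed here. An 8 mm punch was lightly freed of fat and extracted whole, so epidermis, hair follicles, dermis and some muscle were measured together. In such bulk tissue a lower number of cells of a type cannot be told apart from less RNA per cell. Nothing in the labels ties a library to an individual animal. The Y-linked gene Ddx3y was at high and near-zero levels within both groups, so the libraries of a group did not all come from 1 animal, but whether each came from its own is not stated. The tests rest on the spread from library to library.

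Gene-assigned reads lay between 21140654 and 25417851 per library. Values are given as CPM, read counts scaled to a common library total with TMM factors, and differences as log2 fold changes, SA minus SE, with their standard errors and adjusted p from edgeR's quasi-likelihood test over 16909 genes. SE libraries 3, 4 and 5 were separated from the remaining 7 libraries in the first principal component of all tested genes (45.2% of the variance), at 37.9, 41.8 and 54.3 against -32.5 to -9.34. The summed level of the 15 measured hair shaft and inner root sheath genes was 17.1 to 57.0 CPM in SA, 19.9 and 80.7 CPM in SE libraries 1 and 2, and 889, 435 and 3009 CPM in SE libraries 3, 4 and 5, and all 15 genes had reads. Keratinocyte markers were present throughout, with Krt5, the keratin of basal cells, at 2246 to 3823 CPM and Krt10, the keratin of cells above them, at 2568 to 4371 CPM over the 10 libraries.

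Several of these genes are near-identical copies, which sets how well single copies could be measured. The first 72 coding bases of 5 Sprr2 genes (of a coding sequence of 252 bases in Sprr2a1, Sprr2a2 and Sprr2a3, 258 in Sprr2d and 327 in Sprr2h) are shown because they contrast the copies that cannot be separated with those that can. Capitals mark bases that differ from Sprr2a1.
Sprr2a1: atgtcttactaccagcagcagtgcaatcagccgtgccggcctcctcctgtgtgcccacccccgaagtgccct
Sprr2a2: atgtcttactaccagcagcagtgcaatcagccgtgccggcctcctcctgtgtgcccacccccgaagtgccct
Sprr2a3: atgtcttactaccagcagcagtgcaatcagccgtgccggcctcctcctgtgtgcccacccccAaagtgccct
Sprr2d: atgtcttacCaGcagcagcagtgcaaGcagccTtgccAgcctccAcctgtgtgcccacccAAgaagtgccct
Sprr2h: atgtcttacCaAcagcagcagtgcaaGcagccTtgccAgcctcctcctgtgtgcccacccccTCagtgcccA
Sprr2a1 and Sprr2a2 had 0 differences over all 252 coding bases, and Sprr2a3 differed from them at 3. In this stretch Sprr2d and Sprr2h each differed from Sprr2a1 at 8 of 72 bases.

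The share of sequence held in common was greatest in the Sprr2a copies. Of all 50-base windows along the transcript, 96.3% in Sprr2a1, 96.5% in Sprr2a2 and 61.1% in Sprr2a3 also occurred in another gene, and these genes held 2, 7 and 116 reads in all 10 libraries together. In the 6 Lce3 genes the shared part ran from 12.1% (Lce3b) to 49.3% (Lce3d), and in the 14 Lce1 genes from 0% (Lce1m) to 27.1% (Lce1i). Sprr1a, Sprr1b, Sprr3, Sprr4, Sprr2h and Lce6a shared no such window, so their counts did not depend on how copies were resolved. No exon of the 38 genes overlapped a gene on the opposite strand, and Sprr2a1 and Sprr2a2 overlapped on the same strand over 1.43% and 1.48% of their exon bases. The levels of single Sprr2a and Lce3 copies are therefore uncertain.

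Per kilobase of exon, the most abundant members were Sprr1a (449 CPM per kb, mean of 10 libraries) and Lce1m (449), followed by Lce1a1 (143), Lce1a2 (139), Lce1c (109) and Lce1b (103). The mean of Sprr1a rested on high values in SE libraries 3, 4 and 5. In SA Sprr1a stood at 257 CPM per kb and Lce1m at 441, and in SE at 640 and 456. In SE libraries 1 and 2 Sprr1a was at 106 and 70.8 CPM and Lce1m at 422 and 390 CPM. Sprr4 stood at 499 CPM per kb, but its gene model is a single exon of 231 coding bases, so this level per length is not comparable with the others. Lce6a lay at 20.2 CPM per kb, while Sprr2h, Sprr2d, Sprr1b and Lce3c lay at 2.22, 2.05, 1.39 and 0.908. Per length, far more reads of back skin at day 21 were thus counted on Lce1 genes and Sprr1a than on Sprr2, Sprr1b or Lce3 genes. Multiply mapping reads were left out of the counts. The few reads of the Sprr2a and Lce3 copies therefore do not show that their transcripts were scarce. Sprr3, Sprr2k and the pseudogene Sprr2c-ps had no read in any library, where a count of 0 allows up to 0.121 to 0.141 CPM (3 reads of each library, counting error only).

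None of the 22 tested members passed an adjusted p of 0.05 in edgeR in either direction. Over all tested genes 13 passed (0.0769%), 10 higher in SA (0.0591%) and 3 lower (0.0177%). At an unadjusted p under 0.05, 13 of the 22 members were higher in SA (background 4.54%) and 1, Sprr1a, was lower (background 6.53%). The latter was lost on leaving out any single SA library or SE library 3, 4 or 5, and with limma voom. The log2 fold change was positive for 18 of the 22, against 48.3% of all tested genes, and its median was 0.41, against -0.01 over all tested genes. Of the 22, 14 are Lce1 genes, which were mostly high and low in the same libraries and partly share sequence. The members are therefore not independent, and these counts are descriptions. DESeq2 called 3 members higher in SA on the same genes, Lce1k (adjusted p = 0.0265), Sprr1b (0.0287) and Sprr2d (0.0402), where it called 0.834% of all tested genes higher, and limma voom called none. In the authors' deposited table Lce1k and Sprr1b had adjusted p-values of 0.0305 and 0.0344, and Sprr2d one of 0.0650.

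**Figure D1:**
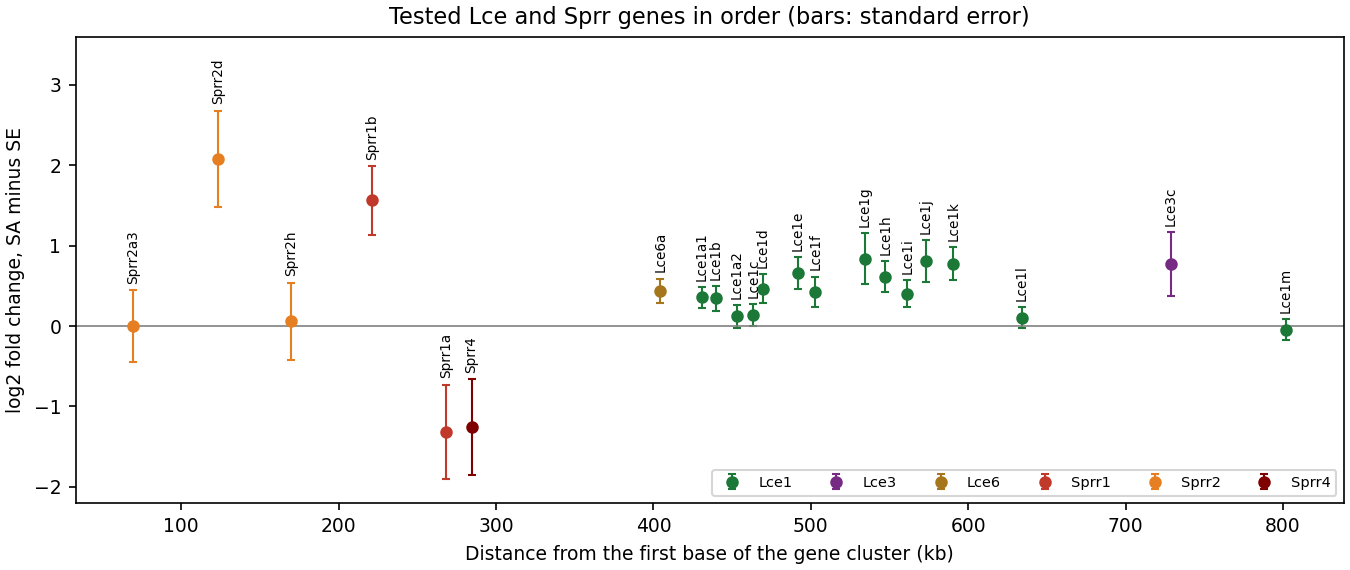
Log2 fold change (SA minus SE) of the 22 tested members against distance in kb from the first base of the gene cluster, coloured by class, with bars for the standard error. The Lce1 genes sit between -0.05 and 0.84, while the Sprr genes spread from -1.32 (Sprr1a) to 2.08 (Sprr2d).

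Sprr1a, a cross-bridging envelope protein that is also made in hair follicles and after nerve or skin injury, and Sprr4, a related gene 14.4 kb away on the same strand, followed each other from library to library. In SA libraries 1 to 5 Sprr1a stood at 178, 201, 224, 208 and 226 CPM. In SE libraries 1 to 5 it stood at 106, 70.8, 735, 596 and 1073 CPM. The SE group thus held both the lowest and the highest libraries, and the narrow SA range lay between them. Sprr4 stood at 53.9, 75.1, 64.3, 71.1 and 76.0 CPM in SA and at 32.4, 20.3, 246, 205 and 309 CPM in SE, in the same arrangement. The ratio of Sprr1a to Sprr4 CPM stayed between 2.67 and 3.48 over the 10 libraries, while each gene spanned about 15-fold (15.1-fold for Sprr1a and 15.2-fold for Sprr4).

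Over all libraries the log2 fold change of Sprr1a was -1.32 ± 0.585 (standard error, adjusted p = 0.437) and that of Sprr4 was -1.26 ± 0.593 (adjusted p = 0.464), neither past the threshold. The direction rested on SE libraries 3, 4 and 5. In a fit without these 3 libraries, which was added once their profiles were known, Sprr1a was 1.24 ± 0.158 higher in SA (adjusted p = 0.0123) and Sprr4 1.37 ± 0.190 higher (adjusted p = 0.0187), with 5 libraries against 2. They were the only members called in that fit, in which 0.153% of all tested genes were called higher. The 3 libraries left out had the highest values of both genes, and the 2 SE libraries kept had the lowest. The direction in that fit was therefore set by the choice of libraries, and its adjusted p-values for these 2 genes are no support for a difference. With the hair gene level as a covariate the values were 0.84 for Sprr1a (adjusted p = 0.816) and 0.90 for Sprr4 (adjusted p = 0.821). The part of hair follicle RNA in the Sprr1a and Sprr4 levels was not tested.

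**Figure D2:**
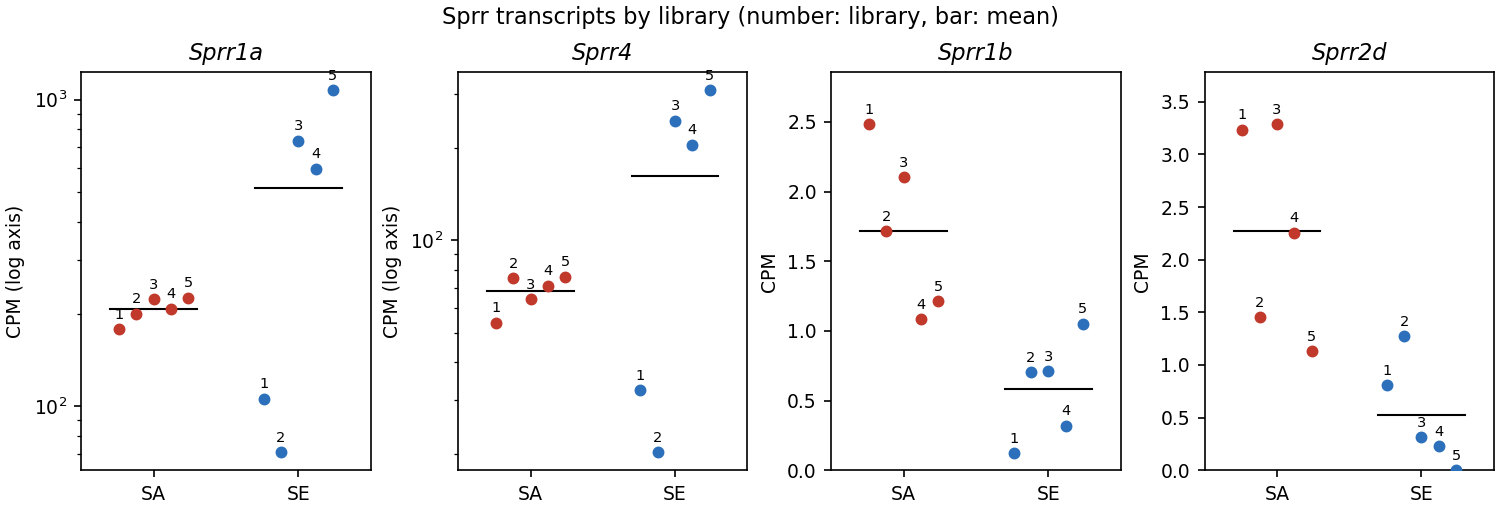
CPM of Sprr1a, Sprr4 (log axes), Sprr1b and Sprr2d (linear axes) in each SA and SE library, numbered 1 to 5, with a bar for the group mean. For Sprr1a and Sprr4 the SE libraries fall below and above all SA libraries, and for Sprr1b every SA library lies above every SE library.

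**Figure D3:**
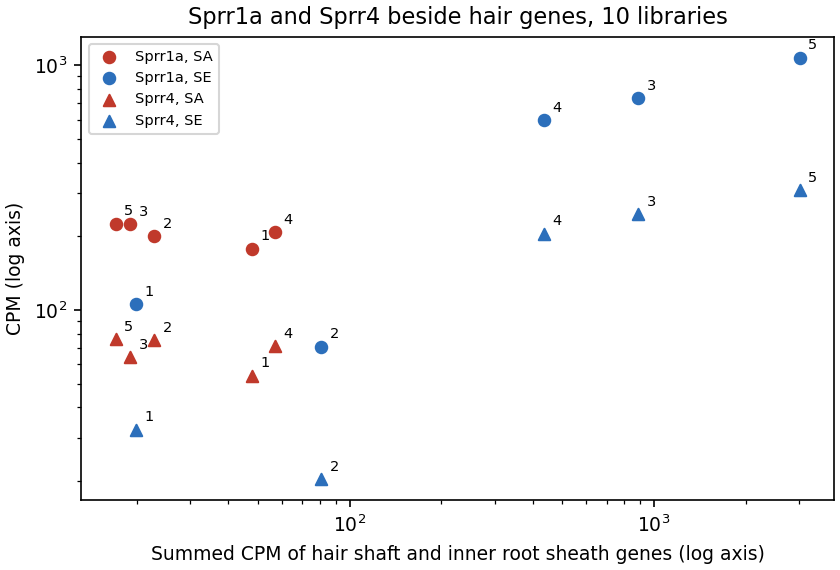
CPM of Sprr1a (circles) and Sprr4 (triangles) against the summed CPM of the hair shaft and inner root sheath genes in the 10 libraries, both axes logarithmic, numbers giving the library within its group. SE libraries 3, 4 and 5, with hair sums of 889, 435 and 3009 CPM, hold the highest Sprr1a and Sprr4 values, and among the other 7 libraries the SA values lie above those of SE libraries 1 and 2.

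Some other genes of the same tissue were high in the same 3 SE libraries. Krt6a, a keratin of stressed epidermis and of the follicle's outer root sheath, stood at 378, 494 and 604 CPM in SE libraries 3, 4 and 5 and at 80.1 to 174 CPM in the other 7 (log2 fold change -1.42 ± 0.471, adjusted p = 0.321). Krt16, its partner keratin, stood at 82.2, 92.7 and 221 CPM there and at 9.83 to 40.9 CPM elsewhere (log2 fold change -1.72 ± 0.673, adjusted p = 0.392). Both belong to the stress and wound keratinocyte list, where 10 of 13 tested genes had positive log2 fold changes and 3 negative. Krt6b of that list, named after its values were seen, went the other way (2.34 ± 0.564, adjusted p = 0.158). It stood at 0.623, 1.42 and 1.51 CPM in SE libraries 3, 4 and 5 and at 3.21 to 23.3 CPM in SA. All 12 tested hair genes had negative log2 fold changes, with a median of -4.77, and none was called.

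Sprr1b, the second Sprr1 gene, is induced in stressed epidermis and airway lining, and it did not follow Sprr1a. It stood at 2.48, 1.72, 2.10, 1.08 and 1.21 CPM in SA libraries 1 to 5 and at 0.121, 0.703, 0.712, 0.320 and 1.05 CPM in SE libraries 1 to 5. Every SA library lay above every SE library, by a narrow margin between SA library 4 and SE library 5, which rest on 24 and 23 reads. It was the only member with no overlap between groups, where 1.13% of all tested genes had all SA libraries above and 0.917% all below. The log2 fold change was 1.56 ± 0.426, a 2.96-fold difference, with an adjusted p of 0.203, and 2.08 ± 0.567 without SE libraries 3, 4 and 5 (adjusted p = 0.232).

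The upstream windows of Sprr1a and Sprr1b are shown because these class mates differed in level and in pattern over libraries. They were taken from RefSeq (GRCm38.p6, minus strand) at chr3:92485896-92486131 and chr3:92438790-92439029. Both were cut to 236 and 240 bases, because the GENCODE gene models begin upstream of the RefSeq start sites. They run up to the base before the GENCODE start site, from which the distances are counted. Capitals mark TATAAA and TGANTCA (the AP-1 site) and the single match to TGACNNNGC (the antioxidant response element), searched on both strands.
Sprr1a: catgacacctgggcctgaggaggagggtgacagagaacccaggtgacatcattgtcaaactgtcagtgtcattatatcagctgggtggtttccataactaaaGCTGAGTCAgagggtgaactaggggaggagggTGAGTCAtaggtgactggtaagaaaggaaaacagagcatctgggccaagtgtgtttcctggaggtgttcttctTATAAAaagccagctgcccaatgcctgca
Sprr1b: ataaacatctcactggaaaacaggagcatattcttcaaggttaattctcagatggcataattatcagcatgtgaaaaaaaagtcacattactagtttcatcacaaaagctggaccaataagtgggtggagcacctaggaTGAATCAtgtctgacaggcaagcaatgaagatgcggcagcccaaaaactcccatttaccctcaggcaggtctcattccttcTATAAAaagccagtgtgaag
Sprr1a held 2 AP-1 matches, at 132 and 102 bases before the start site, and the antioxidant response element match on the other strand overlaps the first of them. Sprr1b held 1 AP-1 match, at 101 bases, and none of the antioxidant kind. Both had a TATA box match, at 29 and 20 bases.

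Sprr2d had the largest positive log2 fold change of the tested members. It stood at 3.23, 1.45, 3.29, 2.26 and 1.13 CPM in SA libraries 1 to 5 and at 0.806, 1.27, 0.312, 0.229 and 0 CPM in SE libraries 1 to 5. Only SE library 2 reached into the SA range, above SA library 5. The log2 fold change was 2.08 ± 0.597, a 4.24-fold difference (adjusted p = 0.227), and without SE libraries 3, 4 and 5 it was 1.13 ± 0.459 (adjusted p = 0.480).

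Sprr2h, another member of the Sprr2 class and its most abundant here, showed no such pattern. It stood at 3.09, 1.28, 2.37, 0.767 and 1.01 CPM in SA and at 0.403, 1.85, 1.65, 1.19 and 3.11 CPM in SE, and the groups overlapped over nearly the whole range. Its log2 fold change was 0.06 ± 0.484 (adjusted p = 0.970). Sprr2d and Sprr2h were both high in SA libraries 1 and 3, and they differed in SE library 5, where Sprr2h was at its highest and Sprr2d had no read.

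The upstream windows of Sprr2d (chr3:92338890-92339139) and Sprr2h (chr3:92385435-92385684), both on the plus strand, are shown because these genes carried the same motifs and had unlike values. Capitals mark TGANTCA, the octamer ATGCAAAT (read here on the other strand) and TATAAA.
Sprr2d: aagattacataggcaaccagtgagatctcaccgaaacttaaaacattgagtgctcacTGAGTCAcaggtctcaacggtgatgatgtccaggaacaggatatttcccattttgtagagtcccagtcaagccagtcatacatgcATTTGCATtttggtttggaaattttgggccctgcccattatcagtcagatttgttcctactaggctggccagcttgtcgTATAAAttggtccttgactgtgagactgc
Sprr2h: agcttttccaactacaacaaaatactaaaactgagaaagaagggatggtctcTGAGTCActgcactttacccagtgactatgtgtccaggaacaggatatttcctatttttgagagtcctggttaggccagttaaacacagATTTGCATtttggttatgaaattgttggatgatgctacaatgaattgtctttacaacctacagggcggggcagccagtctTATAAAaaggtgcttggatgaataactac
The AP-1 match began 193 bases before the start site in Sprr2d and 198 in Sprr2h, the octamer match 108 and 109 bases, and the TATA box match 29 bases in both. The same 3 motifs stood together in 7 of the 10 Sprr2 windows in the RefSeq table, and in none of Sprr2a1, Sprr2a2 and Sprr2a3.

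The rest of the Sprr2 class had few counted reads. Multiply mapping reads, which matter most for the Sprr2a copies, are missing from these values and from the class sum below. Sprr2a3, the third tested member, had a log2 fold change of 0.00 ± 0.448 (adjusted p = 0.999), and 0.11 ± 0.424 with its 2 near-identical copies summed into 1 row (adjusted p = 0.931). Of the 10 Sprr2 genes below the filter, 2 had no read. Sprr2e, Sprr2f, Sprr2g and Sprr2i together held 92, 16, 72, 6 and 29 reads in SA libraries 1 to 5 and 8, 17, 7, 4 and 1 reads in SE libraries 1 to 5. Their reads came mostly from SA libraries 1 and 3, and the other 3 SA libraries were close to the SE range. These 4 genes were singled out after their values were seen and got no test. Summed over all 13 genes, the Sprr2 class stood at 6.75 ± 3.44 CPM in SA and 3.07 ± 0.921 CPM in SE (SD, n = 5 each), on 758 and 348 reads, with SA libraries 1 and 3 at 11.3 and 9.60 CPM and the other 8 libraries between 2.33 and 4.53 CPM.

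Beside this, Ddx3y was at 86.0 and 76.3 CPM in SA libraries 1 and 3 and at 116 CPM in SE library 3, and at no more than 0.183 CPM in the other 7. The part of sex in the Sprr2 values was not tested.

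The Lce1 class was the bulk of the late envelope transcripts, with a summed level of 944 ± 171 CPM in SA and 863 ± 133 CPM in SE (SD, n = 5 each), and the groups overlapped. Lce1m, the gene at the far end of the cluster, supplied more of these reads than any other gene in each library. It stood at 549, 387, 409, 393 and 356 CPM in SA libraries 1 to 5 and at 422, 390, 477, 518 and 356 CPM in SE libraries 1 to 5, with a log2 fold change of -0.05 ± 0.133 (adjusted p = 0.907). It was thus level between the groups within the spread of the libraries, with SA library 1 above all others.

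The other 13 Lce1 genes all had positive log2 fold changes, 10 of them with an unadjusted p under 0.05. Lce1a1, the most abundant after Lce1m by the mean of 10 libraries, stood at 143, 93.3, 107, 122 and 98.7 CPM in SA and at 88.3, 77.1, 97.3, 105 and 73.1 CPM in SE (log2 fold change 0.36 ± 0.132, adjusted p = 0.364). The upper SE libraries, 3 and 4, reached into the SA range. Lce1a2 had nearly the same mean and was the higher of the pair in every SE library, with a log2 fold change of 0.12 ± 0.144 (adjusted p = 0.767). Lce1k, with the smallest p of all members, stood at 7.22, 4.40, 5.39, 9.07 and 6.71 CPM in SA and at 4.19, 2.77, 3.92, 4.76 and 3.52 CPM in SE. Only SA library 2 fell within the SE range, below SE library 4. Its log2 fold change was 0.77 ± 0.207, a 1.71-fold difference (adjusted p = 0.193), and leaving out any single library moved it between 0.63 and 0.89.

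Lce1e, a late envelope gene of the same stretch, had a similar arrangement. It stood at 16.6, 9.55, 11.8, 19.9 and 12.6 CPM in SA and at 8.90, 7.87, 9.08, 11.6 and 7.04 CPM in SE, where SE library 4 alone lay above the lowest SA library. The log2 fold change was 0.66 ± 0.200 (adjusted p = 0.268). The remaining 10 genes lay between 0.10 (Lce1l) and 0.84 (Lce1g), with adjusted p-values between 0.302 (Lce1h) and 0.783 (Lce1l). With Lce1a1 and Lce1a2, whose symbols differ only in the last digit, summed into 1 row, the pair had a log2 fold change of 0.24 ± 0.137 (adjusted p = 0.538).

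Each Lce1 gene was highest in SA library 1 or in SA library 4 (7 genes each), and lowest in SE library 2 (8 genes), SE library 5 (5 genes) or SE library 1 (1 gene). The libraries that were high or low were therefore the same for most of the class. Without Lce1m the class summed to 525 ± 102 CPM in SA and 431 ± 68.5 CPM in SE. Summed spinous and granular keratinocyte markers ran from 11941 to 14682 CPM in SA and from 9991 to 13321 CPM in SE, all 13 with reads, with a median log2 fold change of 0.18. With these markers as a covariate, 7 members in place of 13 had an unadjusted p under 0.05 in the higher direction. No share over all tested genes was made for that count, and calls over all genes went from 13 to 232 in this fit. The change from 13 to 7 therefore has no background to be read against. In the same fit Lce1a2, Lce1c and Lce1l turned slightly negative, and Lce1k stood at 0.73 ± 0.233 (adjusted p = 0.120).

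Within the class, the less abundant genes had the larger log2 fold changes. The 7 genes at 4.83 to 24.2 CPM per kb had log2 fold changes of 0.40 to 0.84, and the 7 genes at 42.4 to 449 CPM per kb had -0.05 to 0.46. Spearman's rho between level and log2 fold change was -0.91 over the 14 genes, which share the same 10 libraries and partly the same sequence, and it is given as a description. Along the chromosome, the 8 neighbouring genes from Lce1d to Lce1k (chr3:92685499-92807891) had log2 fold changes between 0.40 and 0.84. The Lce1 genes outside that stretch had at most 0.36. The stretch was marked off after the values were seen, and it holds all 7 of the less abundant genes. Level and position therefore cannot be told apart here.

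**Figure D4:**
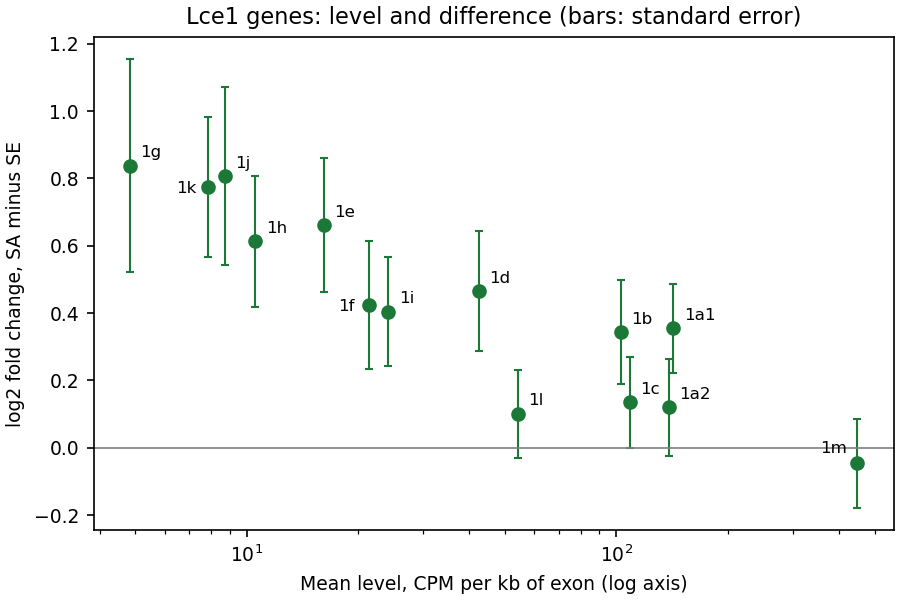
Log2 fold change (SA minus SE, bars for the standard error) of the 14 Lce1 genes against their mean level in CPM per kb of exon on a log axis. The points run from 0.84 for Lce1g at 4.83 CPM per kb down to -0.05 for Lce1m at 449 CPM per kb.

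Taken as shares of all Lce1 reads, some genes of the class did not overlap between the groups. Lce1m made up 40.3% to 47.1% of all Lce1 reads in SA and 49.0% to 51.6% in SE, with no overlap. Lce1a1 made up 11.4% to 12.5% in SA and 10.1% to 10.5% in SE, again with no overlap, in the opposite direction. Lce1e (1.16% to 2.04% against 0.961% to 1.11%), Lce1h (0.872% to 1.22% against 0.524% to 0.786%) and Lce1k (0.535% to 0.930% against 0.367% to 0.497%) were also higher in every SA library. Thus 4 of the 14 shares lay all above and 1 all below in SA, and the shares of the other 9 genes overlapped. In CPM, 0 of the 14 genes lay all above and 0 all below, against 1.13% and 0.917% of all tested genes. No background was made for shares within a class, so the count of shares is a description only. Shares within a class add up to 100%, so the lower share of Lce1m and the higher shares of the others are not separate results, and no test was made of them. Sequence shared with other genes was 0% of windows in Lce1m and 9.12% in Lce1k, 19.9% in Lce1a1 and Lce1h and 22.7% in Lce1e, and the part of multiply mapping reads in these shares was not tested.

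**Figure D5:**
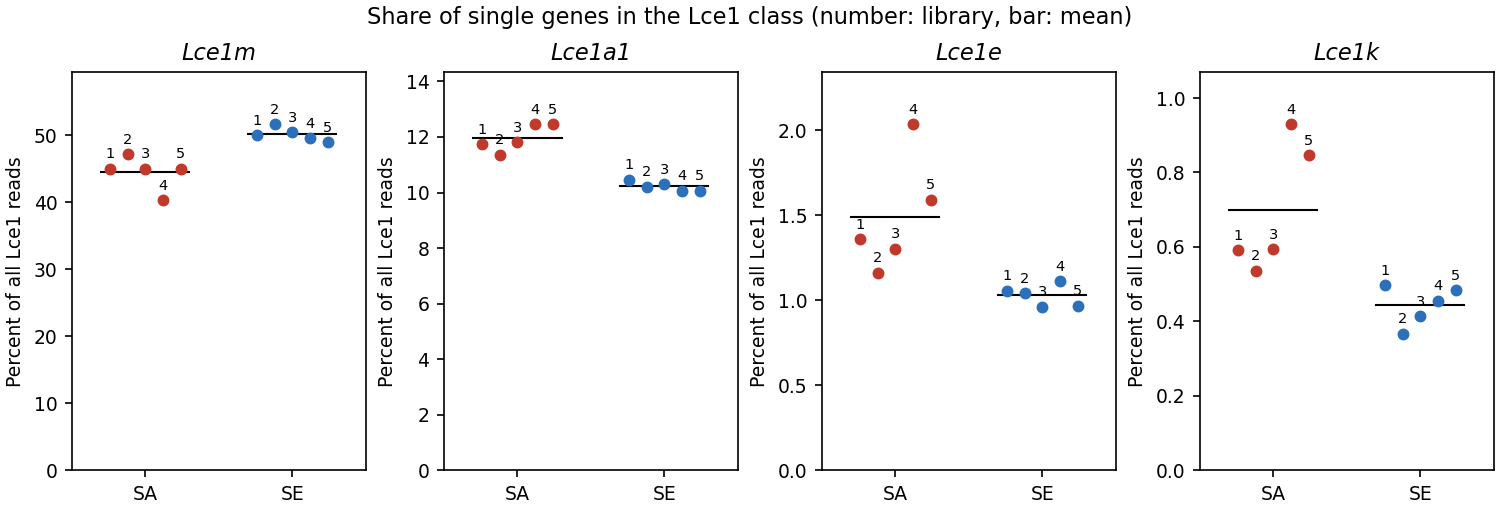
Share of Lce1m, Lce1a1, Lce1e and Lce1k in all Lce1 reads, in percent, for each SA and SE library numbered 1 to 5, with a bar for the group mean. Lce1m lies lower in all SA libraries (40.3% to 47.1% against 49.0% to 51.6%) and the other 3 genes lie higher.

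The upstream windows of Lce1k (chr3:92807892-92808141) and Lce1m (chr3:93019062-93019311), both on the minus strand, are shown as the class member with the smallest p and the most abundant one. Capitals mark TATAAA, the only motif of the 5 searched that either held.
Lce1k: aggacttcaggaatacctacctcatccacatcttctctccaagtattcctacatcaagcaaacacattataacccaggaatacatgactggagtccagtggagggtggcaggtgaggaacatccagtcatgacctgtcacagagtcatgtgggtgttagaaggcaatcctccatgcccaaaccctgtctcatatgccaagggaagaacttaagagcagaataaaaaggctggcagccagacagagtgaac
Lce1m: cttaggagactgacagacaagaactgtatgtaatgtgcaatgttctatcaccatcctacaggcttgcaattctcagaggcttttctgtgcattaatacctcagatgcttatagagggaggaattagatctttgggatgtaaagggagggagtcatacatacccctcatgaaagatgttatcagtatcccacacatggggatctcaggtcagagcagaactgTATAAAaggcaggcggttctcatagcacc
Lce1m had a TATA box match 29 bases before its start site, and no match was found in the window of Lce1k. Among 13 Lce1 windows, 2 held TATAAA, 0 TGANTCA and 0 the octamer.

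Lce6a, a separate late envelope gene at the edge of the Lce1 group, behaved like the middle of that group. It stood at 20.7, 18.4, 15.04, 22.9 and 15.3 CPM in SA and at 11.2, 11.7, 14.9, 16.99 and 13.3 CPM in SE, where SE library 4 alone lay within the SA range. The log2 fold change was 0.44 ± 0.150 (adjusted p = 0.330). Without SE libraries 3, 4 and 5 it was 0.69 ± 0.180 (adjusted p = 0.208).

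The Lce3 genes, known from skin repair and from psoriasis in people, had few counted reads in either group. Only Lce3c passed the filter, at 0.375, 0.792, 1.05, 0.587 and 0.444 CPM in SA and 0.201, 0.527, 0.623, 0.183 and 0.366 CPM in SE. The groups overlapped, and the log2 fold change was 0.77 ± 0.403 (adjusted p = 0.498), on 74 and 43 reads. The whole class summed to 1.17 ± 0.449 CPM in SA and 0.620 ± 0.186 CPM in SE (SD, n = 5 each), again with overlap. The coding sequences of the 6 Lce3 genes, of 297 bases each, differed pairwise at 2 to 17 bases. The class sum does not depend on how reads were split between the copies, but multiply mapping reads are missing from it too.

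Over both families, the 13 untested members with reads held 312 reads in SA and 73 in SE, with more reads in SA for 12 of the 13 and fewer for Lce3d. These are sums over libraries and carry no test, and for Sprr2e, Sprr2f, Sprr2g and Sprr2i most of them came from SA libraries 1 and 3.

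Without SE libraries 3, 4 and 5, 12 members had all 5 SA libraries above SE libraries 1 and 2, where 7.74% of all tested genes did. They were Lce1a1, Lce1b, Lce1d, Lce1e, Lce1f, Lce1h, Lce1i, Lce1k, Lce6a, Sprr1a, Sprr1b and Sprr4. With 2 SE libraries left this count says only how these 7 libraries are ordered.

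Of the 5 motifs searched in the 250 bases before the start site of 32841 RefSeq windows, TATAAA was present in 12.4% of all windows and 14 of 34 member windows, and TGANTCA in 6.75% and 9 of 34. The octamer ATGCAAAT was present in 1.60% of all windows and 7 of 34, all of them Sprr2. TGACNNNGC was present in 10.2% and 7 of 34, and CTTTGA, the LEF/TCF motif, in 13.8% and 2 of 34. The AP-1 motif was thus found in Sprr1 (2 of 2) and Sprr2 (7 of 10) windows and in no Lce window. A match describes the letters and does not show that a factor binds there, and copies that arose from each other share their upstream sequence.

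Other envelope genes gave no calls. Of 21 cornified envelope genes outside the families 19 were tested, none was called, and their median log2 fold change was 0.05. Ivl, involucrin, was 140 ± 13.7 CPM in SA and 97.8 ± 8.93 CPM in SE (SD, n = 5 each) with no overlap between groups (log2 fold change 0.51 ± 0.0867, adjusted p = 0.0726). Lor, loricrin, was 645 ± 178 and 542 ± 111 CPM (0.25 ± 0.184, adjusted p = 0.619). Flg, filaggrin, held 4 reads in all and was not tested, while Flg2 of the same list stood at 940 CPM (mean of 10 libraries). Multiply mapping reads, 23.1% to 26.7% of the listed reads, were left out of the counts. Their part in the Flg value was not tested, so the low count does not show that filaggrin was absent. Of these partners of the Sprr and Lce proteins, involucrin came closest to the threshold. The lowest log2 fold change of the list was that of Crnn, cornulin, at -4.14 ± 1.13 (adjusted p = 0.201), with 13.4, 6.36 and 49.1 CPM in SE libraries 3, 4 and 5 and 0.161 to 1.44 CPM in the other 7. Rptn, repetin, had -0.63 ± 0.455 (adjusted p = 0.614) and was also highest in these 3 SE libraries, at 221, 163 and 210 CPM against 28.3 to 106 CPM. Both were named after their values were seen.

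The crosslinking enzymes showed no difference past the threshold. All 7 genes of that list were tested and none was called, with a median log2 fold change of 0.10. Tgm1 and Tgm3, the main transglutaminases of cornification, had log2 fold changes of -0.05 ± 0.175 (adjusted p = 0.931) and 0.04 ± 0.106 (adjusted p = 0.899). In 2 of the 7, all SA libraries lay above all SE libraries, against 1.13% of all tested genes. They were Sdr9c7 (0.38 ± 0.0895, adjusted p = 0.149) and Alox12b (0.35 ± 0.0958, adjusted p = 0.203). Tchh, also in the hair list, had -4.56 ± 1.09 (adjusted p = 0.156). Sdr9c7, Alox12b and Tchh were named after their values were seen.

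Among 24 regulators of the gene complex none was called, and the median was -0.04. Klf4 and Grhl3, transcription factors needed for barrier formation, had log2 fold changes of -0.05 ± 0.129 (adjusted p = 0.885) and 0.16 ± 0.142 (adjusted p = 0.678). Nfe2l2, which encodes Nrf2, an activator of antioxidant genes and, in keratinocytes, of some Sprr and Lce genes, had -0.14 ± 0.0642 (adjusted p = 0.463). Of 14 Nrf2 targets 2 were called higher, Me1, which makes NADPH, at 0.83 ± 0.0885 (adjusted p = 0.00294) and Gsta3, a glutathione transferase, at 1.06 ± 0.166 (adjusted p = 0.0455), and the median was 0.03. Nqo1, the classical Nrf2 target, had 0.23 ± 0.122 (adjusted p = 0.499). At an unadjusted p under 0.05 the list held 3 higher and 3 lower genes, the lower being Gclc (-0.46, adjusted p = 0.355), Hmox1 (-0.24, adjusted p = 0.383) and Gclm (-0.15, adjusted p = 0.451), which were named after their values were seen.

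Of 13 tested stress and wound keratinocyte genes 1 was called higher, Il1f9, an interleukin-36 cytokine of the epidermis, at 0.75 ± 0.0823 (adjusted p = 0.00303), with a list median of 0.75. None of the 8 basal keratinocyte genes (median -0.06, Krt5 at -0.08 ± 0.149, adjusted p = 0.848) and none of the 13 spinous and granular genes was called (Krt1 at 0.21 ± 0.154, adjusted p = 0.617, and Krt10 at 0.21 ± 0.128, adjusted p = 0.562). Outside the keratinocytes, no sebaceous (9 tested, median 0.30), adipocyte (8, 0.26), skeletal muscle (8, 0.08) or fibroblast marker (8, 0.15) was called. Of 8 T cell genes Trdc, the constant segment of the delta T cell receptor, was called higher (0.73 ± 0.102, adjusted p = 0.0220, list median 0.72), and of 9 neutrophil and macrophage genes Mmp9, a matrix protease (0.62 ± 0.0924, adjusted p = 0.0362, list median 0.35).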

How the data were processed

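RNA of whole mouse skin was measured in 10 libraries, 5 per group, grouped and numbered by their titles. The deposited count table holds raw reads per Ensembl gene. Per the submitters' processing notes, the authors' tools were STAR 2.4.2a, SAMtools, HTSeq 0.6.1p1 and DESeq2, and the genome build was GRCm38 (mm10). Annotation release, counting mode and strand are not stated in the labels or headers. A second deposited table is the authors' own comparison, with DESeq2's column names, and holds log2 fold changes, their standard errors and Wald statistics (score columns) and p-values, per the file headers. It supplied symbols and the values named as the authors' deposited table. The 5 rows that name no gene (30.5% to 34.6% of listed reads) were left out.

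The test used edgeR 4.0.16 (R 4.3.3) with filterByExpr (minimum count 10), TMM, two-sided quasi-likelihood test without covariates, Benjamini-Hochberg adjustment over 16909 genes, threshold 0.05, prior count 0.125. The standard error is the log2 fold change over the square root of F. The biological coefficient of variation was 18%, and the fit was tested on simulated data. Alternatives used DESeq2 1.42.0, limma 3.58.1 and other scalings, filters, covariates and libraries. Replicate pairs had a chi-square per degree of freedom of 5.10 to 83.9, so none agreed within sampling noise. Gene models came from GENCODE vM21, and upstream windows (34 of 38 members matched) from RefSeq, GRCm38.p6.

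The members, the gene lists and the rule for named genes were chosen with earlier results of these data known. The rule took members past the threshold, the 2 with the highest mean CPM per class (1 where 1 was tested), the 4 with the smallest p, fixed envelope, keratin and regulator genes, and up to 3 called genes per list. Members named outside it were chosen after their values were seen.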

Additional observations from a re-analysis of the deposited data

Results flagged for a closer look

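Lce1m in SA library 1 lay far from the other SA libraries, at 549 CPM against 409 CPM in the nearest, a gap of 0.728 of the group's range. Among the 56 groups of values checked in this way it was the only one, and chance flags about 5% of groups.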

How the results depend on the processing

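No setting called a member lower in SA. DESeq2 called 3 members higher and the fit without SE libraries 3, 4 and 5 called 2, and every other alternative called 0. Those 2 were Sprr1a and Sprr4, whose direction in that fit was set by the choice of libraries. The number of members with all SA libraries above all SE libraries was 1 in the full data (1.13% of all tested genes) and 12 without SE libraries 3, 4 and 5 (7.74%). It ran from 1 to 5 when single libraries were left out (2 without SE library 1 or 2, 3 without SA library 2 or 5, 5 without SE library 4). Groups separate more often by chance with fewer libraries, and no share over all tested genes was made for single libraries left out. Where a sign turned, the cause was not tested. With the keratinocyte covariate Lce1a2 was -0.043, Lce1c -0.0029, Lce1l -0.025, Sprr2a3 0.27 and Sprr2h -0.39. With the hair covariate Lce1m was 0.019, Sprr1a 0.84 and Sprr4 0.90, and without SE libraries 3, 4 and 5 they were 0.051, 1.24 and 1.37. Sprr2a3 was 0.010 with library totals only, 0.011 without a count filter and 0.049 in limma voom. Leaving out single libraries gave -0.0099 to 0.21 for Lce1a2, -0.16 to 0.032 for Lce1m, -0.28 to 0.24 for Sprr2a3 and -0.27 to 0.43 for Sprr2h.

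The replicate numbers did not pair the libraries: same-numbered libraries' deviations correlated at -0.26, -0.29, -0.13, -0.11 and 0.07, and 1 of 5 matched its own number best. With the replicate block 0 members were called, and Sprr2a3 stood at 0.00997.

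Over all genes the 13 calls became 297 with DESeq2, 232 with the keratinocyte covariate, 225 and 152 without SE library 1 or 2, 41 without SE libraries 3, 4 and 5, and 7 to 8 without SA library 1, 2, 3 or 5. The 13 members higher at an unadjusted p under 0.05 became 7 with the keratinocyte covariate and 8 without SA library 4. No share over all tested genes at an unadjusted p was made in the alternative fits, so such counts have no background. The count of 1 lower member became 0 in limma voom, with the replicate block or the hair covariate, without SE libraries 3, 4 and 5, and without any single SA library or SE library 3, 4 or 5, and 2 without a count filter, with the keratinocyte covariate and without SE library 1 or 2. Members under 1 CPM rest on few reads, and 16 of 38 could not be tested.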
